A study of Homo sapiens with 6 samples.

Results

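The interferon-stimulated antiviral genes described here are 39 listed genes of the type I interferon response, with guanylate-binding protein and HLA genes left aside, out of 50868 genes with a value. They were listed by name, with earlier results of these data known, and all 39 were found after matching Ensembl identifiers to symbols. By role they comprise 2 sensors of viral RNA, 3 STAT and IRF factors and 34 effectors. RNA-seq libraries labelled A549, a human lung adenocarcinoma line, came from wild-type cells given a scramble siRNA (control, n = 3) or an siRNA against SF3B4, a subunit of the splicing complex SF3b (n = 3). Medium and serum were the same for both groups, and neither the dose of siRNA nor the time of harvest is stated in the sources. The titles call the replicates biological without saying whether they were separate cultures, so p-values measure the spread between these libraries, which may be technical.

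Type I interferons act through a receptor of IFNAR1 and IFNAR2 and the kinases JAK1 and TYK2. A complex that includes STAT2 and IRF9 then binds a promoter element, the interferon-stimulated response element (ISRE), and switches on genes whose products sense viral RNA, block translation or entry, or degrade RNA. Epithelial cells of the airway use this programme against respiratory viruses.

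The labels were checked before the members were read. The control libraries held SF3B4 at 88.6, 92 and 93.8 FPKM (fragment number relative to transcript length and library total) and those given SF3B4 siRNA at 22, 17.7 and 22.3 FPKM (exact two-sided permutation p = 0.1, the smallest that 3 against 3 allows). In SF3B4 siRNA replicates 2 and 3 the genotype label reads SF3B5 or SF3B6 knockdown, but title and treatment name SF3B4, and these were followed. SF3B5, another subunit of SF3b, was lower in all 3 SF3B4 siRNA libraries (201, 189 and 207 FPKM, against 393, 432 and 453 FPKM in controls, limma adjusted p = 9.6e-05), and SF3B6 did not pass the test (limma adjusted p = 0.18). Column headings of the tables carry the name H1650, another lung adenocarcinoma line. Of 10 genes typical of A549, 4 were under 1 FPKM in every library, among them ALDH1A1 at 0 to 0.0594 and AKR1C1 at 0.0161 to 0.0749 FPKM, while NQO1 stood at 147 to 180.2 FPKM. The 6 epithelial markers summed to 1352 to 1551 FPKM in the controls and 1495 to 1559 FPKM after SF3B4 siRNA, most of it keratins, and of these 6 CDH1 (41.2 to 75 FPKM, limma adjusted p = 0.008) and EPCAM (21.3 to 27.2 FPKM, limma adjusted p = 0.049) rose. The 6 fibroblast markers summed to 2.13 to 2.24 FPKM in controls and 2.88 to 3.23 FPKM after SF3B4 siRNA, with COL1A1 rising from 1.33 to 2.27 FPKM (limma adjusted p = 0.0023), 5 under 1 FPKM in every library, and LUM and DCN near 0. Of 8 immune cell markers, PTPRC, MS4A1, NKG7 and LYZ were listed at 0 in every library and 7 stayed under 1 FPKM. The 8 summed to 2.46 to 2.87 FPKM in controls and 4.76 to 6.59 FPKM after SF3B4 siRNA, nearly all of it CD14, which rose from 2.59 to 5.62 FPKM (limma adjusted p = 0.0013). The 4 endothelial markers stayed under 1 FPKM. What part these markers had in the members' values was not tested. Low values moved in steps of whole fragments, which implied 17514669 to 18549434 fragments per library, so depth differed little.

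The ISRE core was looked for in RefSeq promoters (GRCh38.p14, 250 bases before to 50 after the transcript start), as 2 copies of GAAA in the same direction with any 2 bases between them, on both strands (copies of TTTC where the match lies on the strand opposite to the gene). A promoter was found for 31 of the 39 members, and 22 of the 31 (71%) held a match, against 1195 of 27305 genes with a promoter (4.38%). Where a gene had several promoter entries, a match in any of them counted. Windows and positions are from the first entry. The windows below are shown because they place the element in 6 members that rose, in the 1 that fell (OAS3) and in ISG15, whose change did not pass the test. Each is 30 bases on the gene's strand, 5′ to 3′, with the match in capitals.
IFIT1 (chr10:89392497-89392526, + strand): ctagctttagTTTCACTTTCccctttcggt
IFIT3 (chr10:89327865-89327894, + strand): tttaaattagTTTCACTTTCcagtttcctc
IFI27 (chr14:94110631-94110660, + strand): cggtttcctgGAAAATGAAAcctatctcat
MX1 (chr21:41420559-41420588, + strand): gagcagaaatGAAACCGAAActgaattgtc
BST2 (chr19:17405741-17405770, - strand): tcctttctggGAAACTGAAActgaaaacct
IFIH1 (chr2:162318686-162318715, - strand): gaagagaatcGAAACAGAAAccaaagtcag
ISG15 (chr1:1013380-1013409, + strand): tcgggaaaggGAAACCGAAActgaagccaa
OAS3 (chr12:112938321-112938350, + strand): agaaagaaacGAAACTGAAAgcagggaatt
OAS3 (chr12:112938452-112938481, + strand): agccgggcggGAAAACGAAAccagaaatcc
The match shown began 116 bases before the start in IFIT1, 122 in IFIT3, 95 in IFI27, 130 in BST2, 21 in IFIH1 and 107 in ISG15, and just after the start in MX1. OAS3 held 1 match 143 bases and 1 match 12 bases before its start. Further matches, not shown, began 103 bases before the start in IFIT1, 156 in IFIT3, 108 in IFI27, 124 in BST2, 159 and 153 in IFIH1 and 113 in ISG15.

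Members were expressed over a wide range in the control libraries. IFI6, a small membrane protein of the endoplasmic reticulum, had the highest mean, 873 ± 125 FPKM (SD, n = 3), followed by the virion tether BST2 at 791 ± 43.7, the entry inhibitor IFITM3 at 633 ± 52.1 and the ubiquitin-like modifier ISG15 at 491 ± 96 FPKM. IFI6 and BST2 overlapped between control libraries (752 to 1001 and 749 to 836 FPKM), so their order is not separated by their spread. These 4 genes held 82.1% of the summed FPKM of all members. A mean of at least 100 FPKM was reached by 5 members, 11 lay between 10 and 100, 16 between 1 and 10, and 7 under 1 FPKM.

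**Figure D1:**
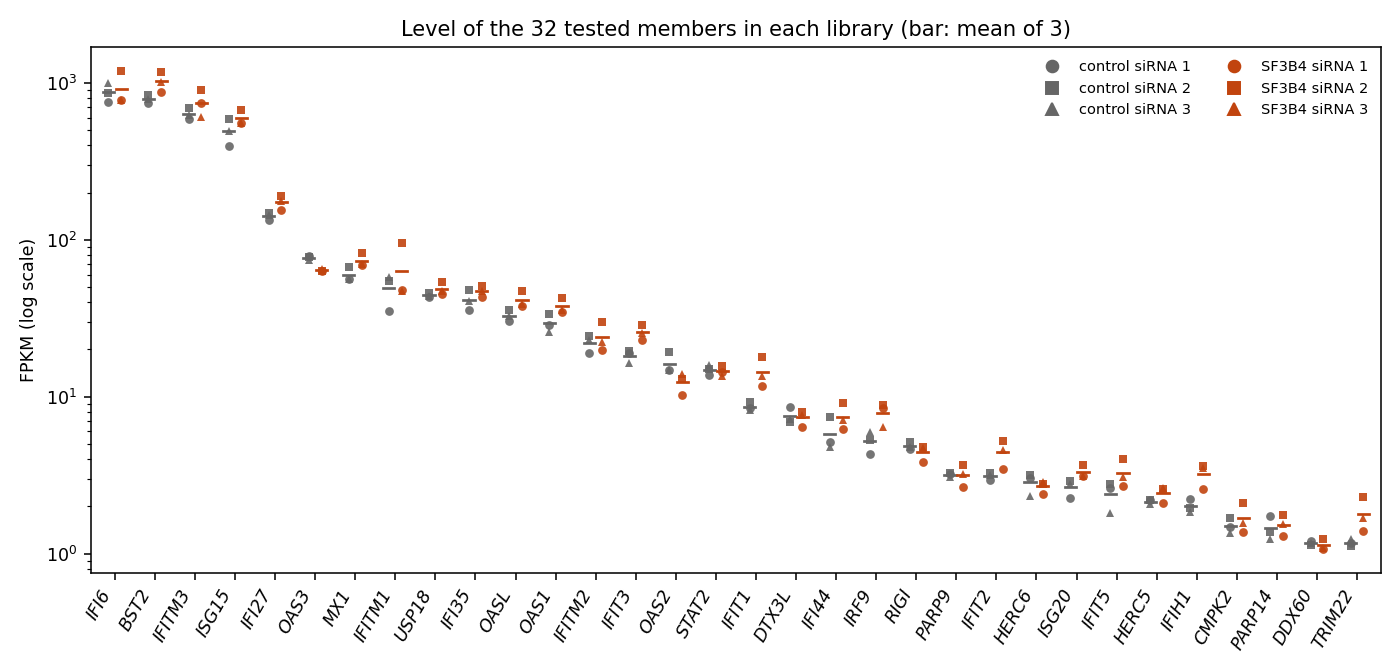
FPKM on a log scale of the 32 tested members in each of the 6 libraries, ordered by control mean, with symbols for the replicates and a bar for the mean of 3. Levels run from IFI6 and BST2 near the top to DDX60 and TRIM22 just above 1 FPKM, and SF3B4 siRNA replicate 2 is the highest library for 25 members.

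Members with at least 1 FPKM in at least 3 libraries were tested, 32 in all, in a limma fit over 9685 genes. After SF3B4 siRNA 9 members rose and 1 fell at an adjusted p under 0.05. That is 28.1% of the 32 higher, against 16% of all tested genes, and 3.12% lower, against 18.1%. The median log2 fold change was 0.25 (range -0.39 to 0.70), beside -0.00 over all tested genes, and 24 of 32 members (75%) had a positive change, beside 49.6% of all tested genes. In 12 members every SF3B4 siRNA library lay above every control library (23.8% of all tested genes did so), and in 2 every one lay below (25.7%). The rises were small, at most 0.70 on the log2(FPKM + 0.1) scale, on which all fold changes here are given and which understates the change of low genes. In bulk RNA, a change in RNA per cell and a change in the share of cells expressing a gene cannot be told apart.

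**Figure D2:**
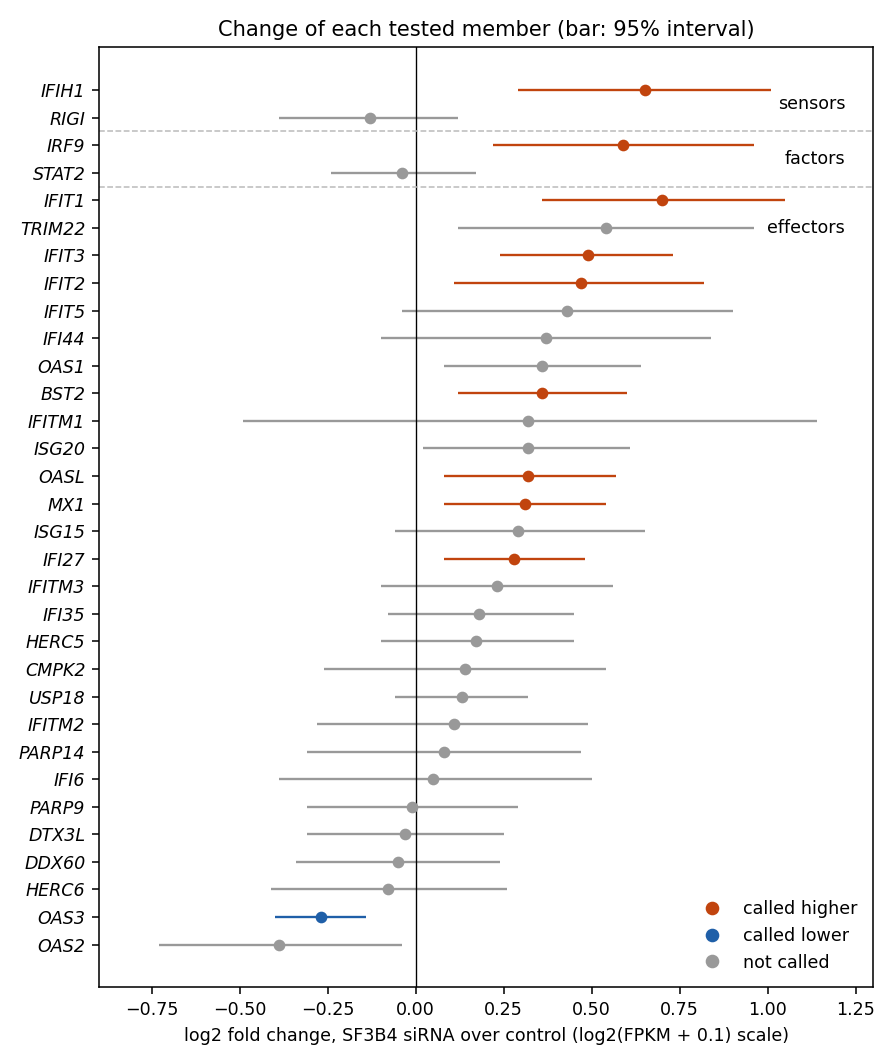
Log2 fold change of each tested member, SF3B4 siRNA over control, with 95% intervals as bars, grouped as sensors, factors and effectors and coloured by call. The 9 members called higher run from 0.28 (IFI27) to 0.70 (IFIT1), and OAS3 is the 1 called lower.

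The sensors did not move together. IFIH1, which encodes MDA5, the sensor of long double-stranded RNA (chr2:162267079-162318703, - strand), was at 2.22, 1.95 and 1.84 FPKM in the controls and at 2.56, 3.62 and 3.5 FPKM after SF3B4 siRNA. Every SF3B4 siRNA library was above every control, and replicate 1 stood nearest to them. IFIH1 rose by 0.65 ± 0.15 on the log2 scale (SE, limma adjusted p = 0.015), on at most 120 to 236 fragments per library. Its call was lost without control replicate 3 (limma adjusted p = 0.0505) and without SF3B4 siRNA replicate 2 (0.052) or 3 (0.0501). RIGI, the sensor of short RNA with triphosphate ends (chr9:32455705-32526324, - strand), was at 4.66, 5.13 and 4.79 FPKM in controls and 3.86, 4.81 and 4.68 FPKM after SF3B4 siRNA. The groups overlapped, and its log2 fold change of -0.13 ± 0.11 did not pass the test (limma adjusted p = 0.39, 95% interval -0.39 to 0.12). The difference between the changes of the 2 sensors was not tested. DHX58, which encodes LGP2, the third helicase of the RIG-I family and no member of the list, rose from 3.04 ± 0.315 to 4.61 ± 0.446 FPKM (limma adjusted p = 0.0072).

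Among the factors, STAT2, which carries the signal from the receptor to the nucleus (chr12:56341597-56360155, - strand), was at 13.7, 15.1 and 16 FPKM in controls and 14.4, 15.6 and 13.6 FPKM after SF3B4 siRNA. The groups overlapped, and the log2 fold change was -0.04 ± 0.09 (limma adjusted p = 0.79, interval -0.24 to 0.17). IRF9, the DNA-binding partner of the complex (chr14:24161053-24166565, + strand), was at 4.32, 5.31 and 5.97 FPKM in controls and 8.47, 8.83 and 6.42 FPKM after SF3B4 siRNA. It rose, with no overlap, by 0.59 ± 0.16 (SE, limma adjusted p = 0.024). The call was lost without control replicate 1 (limma adjusted p = 0.067) or 2 (0.054) and without SF3B4 siRNA replicate 1 (0.072) or 2 (0.078). IRF9 is uncertain for another reason: 48.44% of its exonic length is shared with AL136295.5, a gene model on the same strand. AL136295.5 was listed at 6.16, 5.36 and 3.63 FPKM in controls and at 2.38, 4.71 and 7.03 FPKM after SF3B4 siRNA. Within each group the library with the highest AL136295.5 value had the lowest IRF9 value. The sum of both was 10.5, 10.7 and 9.6 FPKM in controls and 10.9, 13.5 and 13.5 FPKM after SF3B4 siRNA, again without overlap, and how fragments were split between them was not tested. IRF7, the factor that amplifies interferon production, was listed at 0 in 5 libraries and at 0.00609 FPKM in control replicate 1, and was not tested.

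The IFIT genes, whose products bind foreign RNA, rose in 3 of 4 cases (against 16% of all tested genes), and the fourth did not pass the test. IFIT1, which holds RNA with incompletely methylated caps (chr10:89392546-89406486, + strand), was at 8.43, 9.25 and 8.26 FPKM in controls and 11.7, 17.8 and 13.6 FPKM after SF3B4 siRNA. The lowest SF3B4 siRNA library was above the highest control. It rose by 0.70 ± 0.15 on the log2 scale (SE, limma adjusted p = 0.0093). IFIT3, which stabilises IFIT1 (chr10:89327894-89340971, + strand), was at 18.9, 19.6 and 16.4 FPKM in controls and 23, 28.7 and 25.4 FPKM after SF3B4 siRNA, also with no overlap. It rose by 0.49 ± 0.10 (SE, limma adjusted p = 0.01). IFIT2, a further partner in that complex (chr10:89283694-89309276, + strand), was at 2.96, 3.25 and 3.15 FPKM in controls and 3.44, 5.24 and 4.56 FPKM after SF3B4 siRNA. It rose by 0.47 ± 0.15 (SE, limma adjusted p = 0.049), just inside the threshold. IFIT1 and IFIT3 kept their calls when any 1 library was left out (limma adjusted p at most 0.035 and 0.033). IFIT2 kept its call only without SF3B4 siRNA replicate 1, with limma adjusted p of 0.12, 0.083 and 0.1 without control replicates 1, 2 and 3, 0.14 without SF3B4 siRNA replicate 2 and 0.12 without replicate 3. IFIT5, which binds single-stranded RNA ends, was at 1.8 to 2.78 FPKM in controls and 2.7 to 4 FPKM after SF3B4 siRNA and did not pass the test (log2 fold change 0.43, limma adjusted p = 0.14).

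The OAS genes differed among themselves in direction. In 2 of the 4 every SF3B4 siRNA library lay above every control (23.8% of all tested genes did so). In the other 2 every one lay below (25.7%). OAS products detect double-stranded RNA and make oligoadenylates, except OASL, which lacks this activity and aids RIG-I. OAS3 (chr12:112938352-112973249, + strand) was at 79.1, 77.5 and 74.2 FPKM in controls and 63.7, 63 and 65 FPKM after SF3B4 siRNA. All SF3B4 siRNA libraries were lower than all controls, with little spread. It fell by 0.27 on the log2 scale (SE 0.06, limma adjusted p = 0.009) and kept its call without any 1 library (limma adjusted p at most 0.036). OASL (chr12:121019111-121039242, - strand) was at 30.2, 35.6 and 32.6 FPKM in controls and 37.6, 47.2 and 38.9 FPKM after SF3B4 siRNA. Its groups did not overlap, and it rose by 0.32 ± 0.10 (SE, limma adjusted p = 0.046). That call was lost without control replicate 1 (limma adjusted p = 0.12) or 3 (0.11) and without SF3B4 siRNA replicate 2 (0.12) or 3 (0.067). OAS1, next to OAS3 on chromosome 12, was at 28.5, 33.9 and 25.7 FPKM in controls and 34.7, 42.5 and 35.9 FPKM after SF3B4 siRNA. It lay just outside the threshold (log2 fold change 0.36 ± 0.12, limma adjusted p = 0.0503). Its limma adjusted p was 0.021 without control replicate 2 and 0.059 to 0.14 without any other 1 library. OAS2, on the other side of OAS3, was at 14.7, 19.3 and 14.7 FPKM in controls and 10.3, 13 and 13.9 FPKM after SF3B4 siRNA (log2 fold change -0.39 ± 0.15, limma adjusted p = 0.08). Thus, of 3 neighbouring genes, OAS1 was higher in every SF3B4 siRNA library and OAS2 and OAS3 were lower in every one, with only the change of OAS3 past the test.

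Of the membrane proteins that act on virus entry and release, BST2 rose. BST2, or tetherin, holds budding virions at the cell surface (chr19:17402939-17405648, - strand), and was at 749, 836 and 788 FPKM in controls and 878, 1171 and 1021 FPKM after SF3B4 siRNA. The groups did not overlap, and the log2 fold change was 0.36 ± 0.10 (SE, limma adjusted p = 0.031). The call was lost without control replicate 1 (limma adjusted p = 0.091) or 3 (0.08) and without SF3B4 siRNA replicate 2 (0.064) or 3 (0.078). The IFITM proteins, which hinder membrane fusion of entering viruses, did not pass the test. IFITM3 was at 586, 689 and 623 FPKM in controls and 747, 899 and 608 FPKM after SF3B4 siRNA (limma adjusted p = 0.24), with SF3B4 siRNA replicate 3 inside the control range. Its limma adjusted p was 0.037 without that replicate and 0.22 to 0.56 without any other 1 library. IFITM1 was at 35, 54.5 and 58 FPKM against 48, 95.8 and 47 FPKM (limma adjusted p = 0.5), the largest SE among the 32 tested members (0.33 on the log2 scale). IFITM2 was at 19 to 24.3 FPKM against 19.95 to 30.1 FPKM (limma adjusted p = 0.65). IFITM1 and IFITM2 share exons on the same strand (32.5% of the exonic length of IFITM1), so their separate values are uncertain.

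MX1 and IFI27 rose by small amounts. MX1, a dynamin-like GTPase that blocks influenza virus among others (chr21:41420304-41459214, + strand), was at 56.1, 67.2 and 55.9 FPKM in controls and 69.5, 82.1 and 69.99 FPKM after SF3B4 siRNA. The log2 fold change was 0.31 ± 0.10 (SE, limma adjusted p = 0.047). The groups did not overlap, but control replicate 2 stood close to the lowest SF3B4 siRNA library. IFI27, a small mitochondrial membrane protein (chr14:94104836-94116698, + strand), was at 134, 149 and 145 FPKM in controls and 154, 189.8 and 176 FPKM after SF3B4 siRNA. No library overlapped, and the difference was 0.28 ± 0.09 (SE, limma adjusted p = 0.042). MX1 kept its call only without control replicate 2, with limma adjusted p of 0.12 and 0.13 without control replicates 1 and 3 and 0.062, 0.13 and 0.068 without SF3B4 siRNA replicates 1, 2 and 3. IFI27 kept its call only without SF3B4 siRNA replicate 1, with limma adjusted p of 0.11, 0.06 and 0.085 without control replicates 1, 2 and 3 and 0.12 and 0.11 without SF3B4 siRNA replicates 2 and 3. IFI6, of the same small-protein family as IFI27, was at 752, 868 and 1001 FPKM against 783, 1189 and 783 FPKM, with overlapping groups (limma adjusted p = 0.86). IFI35 and IFI44 overlapped too, with log2 fold changes of 0.18 (limma adjusted p = 0.25) and 0.37 (0.19). For IFI44 the limma adjusted p was 0.045 without control replicate 2 and 0.13 to 0.45 without any other 1 library.

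None of the 4 genes of the ISG15 system passed the test; 0 had an unadjusted limma p under 0.05. ISG15 itself (chr1:1001138-1014540, + strand) was at 395, 587 and 493 FPKM in controls and 555, 674 and 560 FPKM after SF3B4 siRNA. The values of control replicate 2 overlapped the SF3B4 siRNA range, and the log2 fold change was 0.29 ± 0.15 (limma adjusted p = 0.18). The limma adjusted p was 0.048 without that library and 0.22 to 0.4 without any other 1. USP18, which removes ISG15 and restrains the receptor, was at 43.3 to 46 FPKM against 44.9 to 54.2 FPKM (log2 fold change 0.13, limma adjusted p = 0.26). A near-identical copy, USP41, was listed at a mean of 4.29 FPKM, so the split of fragments between the pair is uncertain. The ligase HERC5 changed by 0.17 and its paralogue HERC6 by -0.08 on the log2 scale (limma adjusted p = 0.29 and 0.72). UBE2L6, the enzyme that passes ISG15 to its ligase and not on the list, rose from 116 ± 14 to 165 ± 13.9 FPKM (log2 fold change 0.52 ± 0.10, limma adjusted p = 0.0063).

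The ADP-ribosylation group did not pass the test. PARP9, its partner ligase DTX3L and PARP14 had log2 fold changes of -0.01, -0.03 and 0.08, with intervals inside -0.31 to 0.47 (limma adjusted p of 0.96, 0.88 and 0.75). The exonuclease ISG20 was above its controls in every SF3B4 siRNA library (2.26 to 2.88 against 3.11 to 3.68 FPKM) without passing the test (limma adjusted p = 0.095), and the nucleotide kinase CMPK2 overlapped (0.57). TRIM22, a ubiquitin ligase against several viruses, was at 1.17, 1.11 and 1.24 FPKM in controls and 1.39, 2.28 and 1.69 FPKM after SF3B4 siRNA. This is a log2 fold change of 0.54 ± 0.18, just outside the threshold (limma adjusted p = 0.051). The limma adjusted p was 0.023 without SF3B4 siRNA replicate 1 and 0.093 to 0.14 without any other 1 library. The helicase DDX60 lay between 1.07 and 1.23 FPKM in the 6 libraries (limma adjusted p = 0.79).

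The 7 members under the filter are given as levels. RSAD2, or viperin, was at 0.625, 0.742 and 0.549 FPKM in controls and 0.905, 1.64 and 1.06 FPKM after SF3B4 siRNA, and IFI44L at 0.573, 0.715 and 0.533 FPKM against 0.757, 1.49 and 1.08 FPKM. Both were above their controls in every SF3B4 siRNA library, and both reached 1 FPKM in 2 libraries. In a fit with no filter they did not pass (log2 fold changes 0.79 and 0.74, limma adjusted p = 0.09 and 0.12). XAF1 stood at 0.283 to 0.856 FPKM, SAMD9 at 0.18 to 0.411, SAMD9L at 0.0815 to 0.154 and MX2 at 0 to 0.0399 FPKM, with overlapping groups, and IRF7 was described above.

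Most members stood highest in SF3B4 siRNA replicate 2. For each member, each library's log2(FPKM + 0.1) was set against the control mean. The median over the 32 members was -0.06, 0.09 and -0.02 in control replicates 1 to 3 and 0.09, 0.47 and 0.20 in SF3B4 siRNA replicates 1 to 3, while that over all tested genes lay between -0.02 and 0.02 in every library. Replicate 2 was the highest SF3B4 siRNA library for 28 of 32 members (87.5%, against 31.5% of all tested genes), and control replicate 2 was the highest control for 21 (65.6%, against 29.7%). Most members thus shared their highest library within each group. Without SF3B4 siRNA replicate 2, 2 members were higher (IFIT1 by 0.54 ± 0.11, limma adjusted p = 0.013, and IFIT3 by 0.40 ± 0.10, limma adjusted p = 0.031) and 1 lower (OAS3, limma adjusted p = 0.033). The median then was 0.13, and 19 of 32 members had a positive change. The counts of members called higher were 3, 9 and 3 of 32 without control replicates 1, 2 and 3, and 8, 2 and 4 without SF3B4 siRNA replicates 1, 2 and 3. Among all 9685 tested genes they were 1492, 1235 and 1143, and 1116, 1116 and 1094. The members' share was thus below that of all tested genes without control replicates 1 and 3 and without SF3B4 siRNA replicate 2. Replicate 2 also had the lowest SF3B4 level of its group and is the library whose genotype label names SF3B5; the part of either in these values was not tested.

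**Figure D3:**
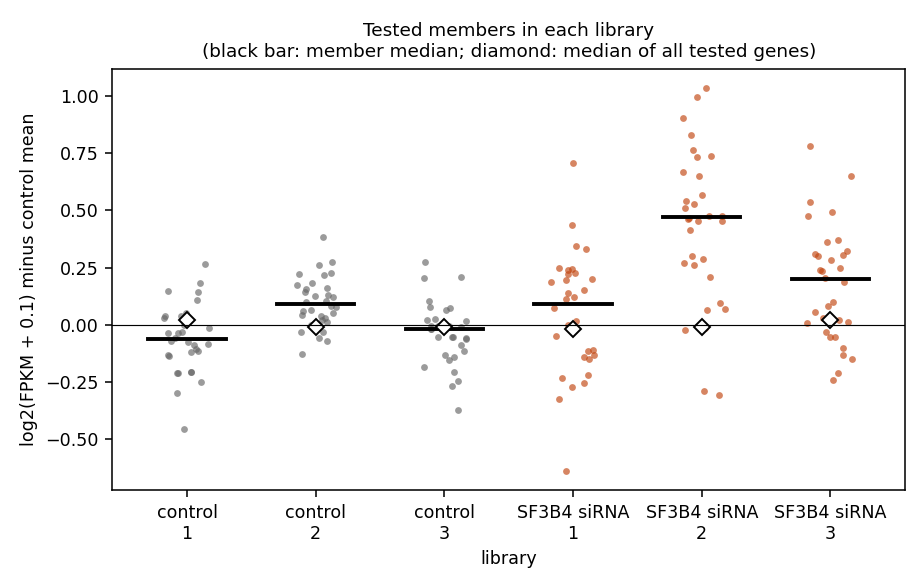
Each tested member's log2(FPKM + 0.1) minus its control mean in each library (points), with the member median (black bar) and the median of all tested genes (diamond). The member medians of SF3B4 siRNA replicates 1, 2 and 3 are 0.09, 0.47 and 0.20, while the diamonds stay between -0.02 and 0.02.

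Genes that make, receive or curb the signal are given from lists that hold 57 further genes, of which 39 were tested, 6 were higher (against 16% of all tested genes) and 7 lower (against 18.1%). Of 9 ligand genes, IFNA1, IFNA2, IFNE, IFNK and IFNG were listed at 0 in every library, and IFNB1 at 0.192 to 0.656 FPKM with overlapping groups. IFNL1, a type III interferon, was the 1 ligand tested, at 2.3, 2.69 and 2.57 FPKM in controls and 3.73, 2.84 and 3.27 FPKM after SF3B4 siRNA (log2 fold change 0.36, limma adjusted p = 0.062). Type III interferons signal through IFNLR1 and IL10RB to the same STAT and IRF9 complex.

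Of 6 receptor and kinase genes, 1 was called higher (against 16% of all tested genes) and 2 lower (against 18.1%). IFNLR1 was at 2.11, 2.15 and 2.17 FPKM in controls and 1.26, 1.2 and 1.25 FPKM after SF3B4 siRNA, and fell by 0.75 on the log2 scale (SE 0.10, limma adjusted p = 0.0016). IFNAR2 was at 1.35, 1.11 and 1.4 FPKM in controls and 0.815, 0.514 and 0.911 FPKM after SF3B4 siRNA. It was called lower (limma adjusted p = 0.031), but it met the filter of 1 FPKM through its controls alone, so its entry into the test favoured a fall. JAK1, the shared kinase, rose from 13.1 ± 1.48 to 16.8 ± 1.58 FPKM (limma adjusted p = 0.039). IFNAR1 at 1.46 and 1.97 FPKM did not pass (limma adjusted p = 0.058), nor did TYK2 and IL10RB (0.37 and 0.88). The feedback inhibitors SOCS3 and SOCS1 changed in opposite directions. SOCS3 rose from 8.54 ± 0.642 to 14.6 ± 0.906 FPKM (limma adjusted p = 7.7e-04) and SOCS1 fell from 8.16 ± 1.88 to 4.44 ± 0.515 FPKM (limma adjusted p = 0.0083), and the other 2 tested were not called.

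Of 13 genes of the arm that induces interferon, 8 were tested, 1 rose (against 16% of all tested genes) and 3 fell (against 18.1%). DHX58 was the 1 that rose, while the kinase IKBKE (4.78 to 3.39 FPKM, limma adjusted p = 0.0073), the factor IRF3 (6.46 to 4.84 FPKM, limma adjusted p = 0.043) and TRIM25, the ligase that activates RIG-I (21.1 to 16.1 FPKM, limma adjusted p = 0.016), fell. STING1, MAVS, TICAM1 and NLRC5 were not called. Among 24 other interferon-responsive genes, 20 were tested, 3 rose (against 16% of all tested genes) and 1 fell (against 18.1%). Besides UBE2L6 these were NMI, a binding partner of IFI35 (1.35 to 2.18 FPKM, limma adjusted p = 0.018), SHISA5 (34.6 to 45 FPKM, limma adjusted p = 0.0073) and, falling, TRIM14, an adaptor of MAVS (17.6 to 12.5 FPKM, limma adjusted p = 0.0023). LGALS3BP, HELZ2, ADAR and PARP10, the most abundant of the rest, were not called. The 20 tested genes of this list had a median log2 fold change of 0.02, with 11 positive and 9 negative.

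**Figure D4:**
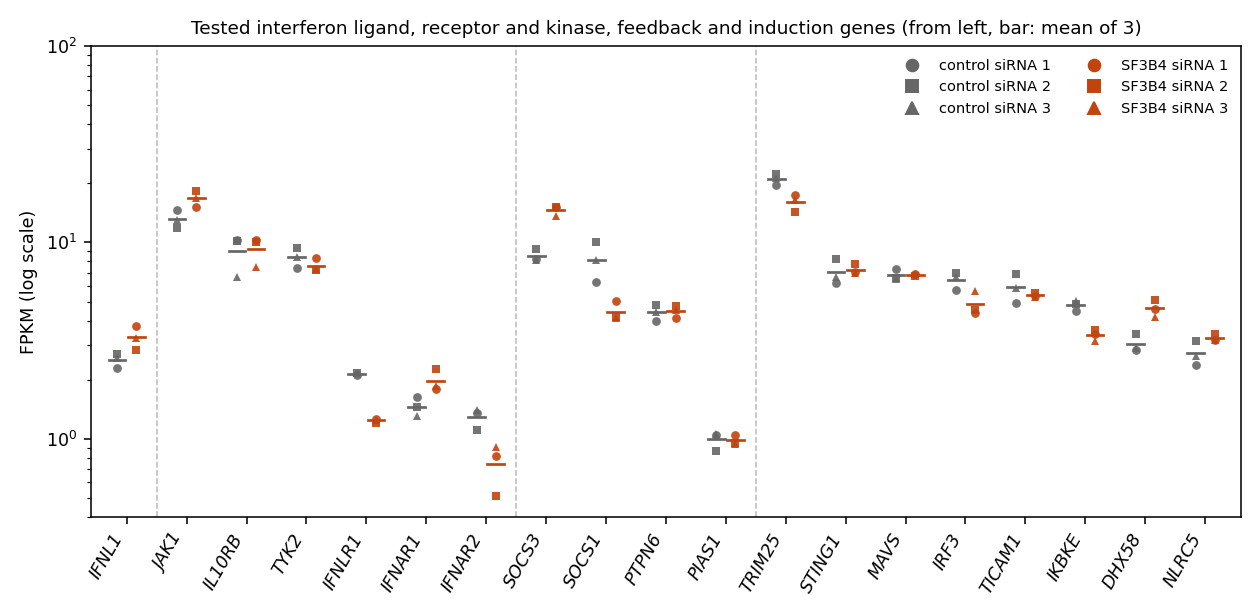
FPKM on a log scale, in each library, of the tested genes of interferon ligands, receptors and kinases, feedback inhibitors and the induction arm (separated by dashed lines), with a bar for the mean of 3. IFNLR1, IFNAR2, SOCS1, IKBKE, IRF3 and TRIM25 are lower and JAK1, SOCS3 and DHX58 higher after SF3B4 siRNA.

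The response element occurred in members of every call. Of the 26 tested members with a RefSeq promoter 19 held a match (73.1%), against 245 of 7083 tested genes (3.46%). Here too a match in any promoter entry of a gene counted, also for the further elements named below. A match was found in 6 of the 7 members called higher (85.7%), in OAS3, and in 12 of the 18 not called (66.7%). OAS3, which fell, thus matches the same spaced pattern as BST2 and MX1, which rose. IRF9 was the member called higher with no match. RIGI, STAT2 and OAS1 had none in their first promoter entry, and their further entries, where present, were not read separately. Only copies of GAAA at the fixed spacing were searched for, so the lack of a match does not show that a gene lacks a response element. The windows of OAS1 and RIGI hold copies of GAAA closer together (GAAACGAAA), a form that was not counted in any gene. A STAT-type element, TTCNNNGAA, was found in 9 of the 26 (34.6%), against 7.37% of tested genes. A run of 3 copies of GAAA at the fixed spacing, which contains the ISRE core, was found in 4 (15.4%), against 0.268%. A match of letters is a description and does not show that a factor binds there. IFIT2, IFITM2, MX2, OAS2, OASL, IRF7, USP18 and TRIM22 had no promoter entry.

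**Figure D5:**
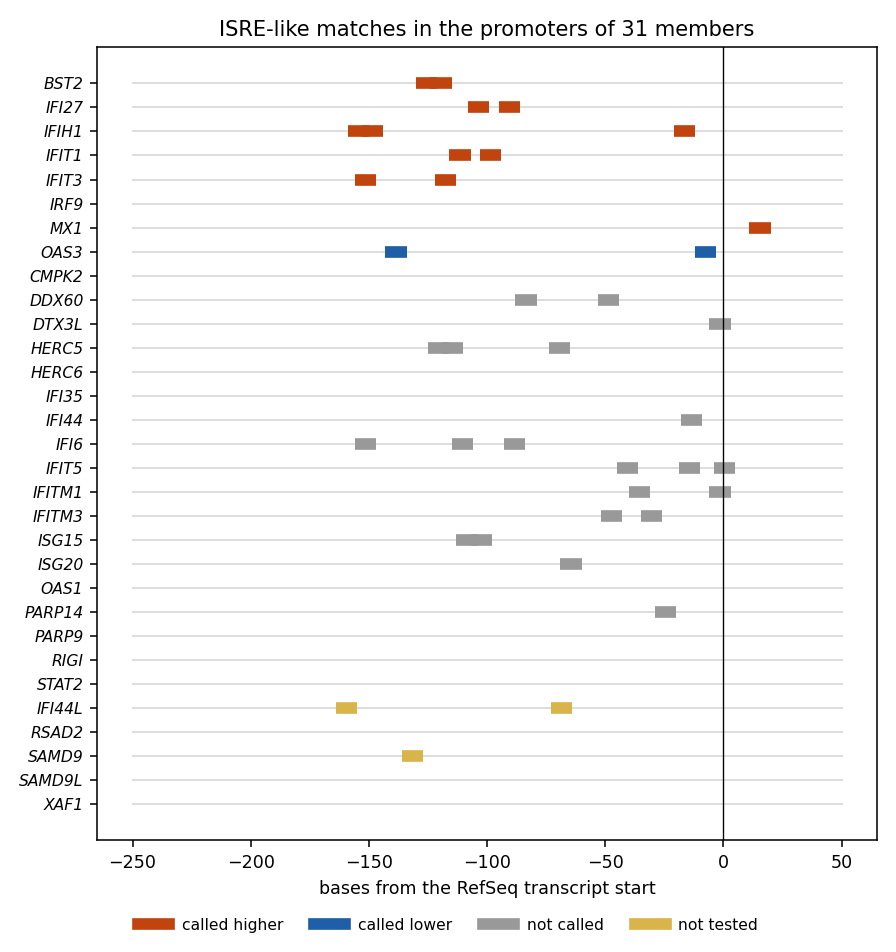
Position of matches to the ISRE core (2 copies of GAAA, 2 bases apart, on either strand) in the first RefSeq promoter entry of 31 members, in bases from the transcript start, coloured by call. Over all promoter entries of a gene, matches occur in 6 of 7 members called higher, in OAS3 (lower) and in 12 of 18 tested members not called. Matches found only in a further entry are not drawn.

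The 7-mers GCCTTCA and CCTTCAA, picked earlier on these same libraries as letters frequent in the 3′ UTRs of genes that fell, were counted in the longest GENCODE 3′ UTR of each gene. They were present in 4 of 32 tested members (12.5%; OASL, PARP9, HERC6 and OAS1), against 19.4% of tested genes and 34.1% of those called lower. OAS3, the member that fell, held neither. Of the 7 pathway genes outside the list called lower, 5 held one (IFNLR1, IKBKE, TRIM25, TRIM14 and IFNAR2, the last tested through its controls alone), and of the 6 that rose, SOCS3 did. As the 7-mers were chosen on falls in these libraries, the counts are a description.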

How the data were processed

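The authors deposited 1 FPKM value per gene for each of 6 libraries. The submitters' processing notes name HISAT2 2.0.4, StringTie 1.3.0 and GRCh38 but not their roles. RNA was total RNA, per the labels' protocols. Annotation and strand setting: not given in the sources used here. Thus reads of overlapping genes may be misassigned. Symbols were matched for 49659 of 50868 identifiers, and positions came from GENCODE 29 (GRCh38). In single-exon genes, 99.12% to 99.53% of low values lay within 0.02 of whole fragments; since lengths are needed to recover them elsewhere, no count test was run.

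The 9685 genes that reached 1 FPKM in 3 or more libraries were fitted with limma 3.58.1 in R 4.3.3 on log2(FPKM + 0.1), as control against SF3B4 siRNA, two-sided, using the intensity trend and robust options, Benjamini-Hochberg adjustment over all 9685 and a threshold of 0.05. Intervals are 95% intervals of the fit. The fit was tested on simulated data. The 39 members and all lists were chosen with earlier results of these data known, so no p is given for a list. By the rule for named genes, called members, sensors and factors are given in every library, other members by range or library, and of each pathway list every called gene and up to 4 abundant others; some genes of those lists are not reported here. Alternatives were other pseudocounts, filters and scalings, a plain fit, a replicate block, a minimum fold and leaving out each library. Fragment numbers per member are upper limits, from the longest transcript, and cover counting error only.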

Additional observations from a re-analysis of the deposited data

How the results depend on the processing

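No called member changed direction under any alternative run. IFIT1, IFIT3 and OAS3 kept their calls in 14 of 15 alternatives, all but the test against a minimum fold change of 1.2. The other 7 called members kept theirs in 6 to 10 (limma adjusted p over their alternatives 0.0059 to 1). Members called higher numbered 3 without a filter on low values, 4 without intensity trend and robust option and 0 with a minimum fold change of 1.2, where 4 (IFIH1, IFIT1, IFIT3 and IRF9) had an unadjusted p under 0.05; members called lower were then 0. Among all tested genes, 1190 of 24450 were higher without the filter, beside 3 of 39 members. Without intensity trend and robust option 1460 of 9685 were higher, a larger share than the 4 of 32 members. Members called higher numbered 2 to 9 when 1 library was left out, beside 1094 to 1492 of all tested genes. Each time 1 member was lower, and the median log2 fold change was 0.13 to 0.31. Over all genes, 1027 were higher and 940 lower at a mean FPKM of at least 5 (fewer genes tested). With a minimum fold change of 1.2, which asks for a larger change and so calls fewer genes, they were 420 and 693. The cause of the other differences was not tested.

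Rescaling to TPM gave 11 members higher and quantile normalization 7, beside 1641 and 1738 of all 9685 tested genes. The changes that turned sign belonged to members that were not called: PARP9 (0.01 with TPM, 0.04 with quantile normalization, and -0.12 to 0.11 when 1 library was left out), DDX60 and DTX3L (each 0.01 with quantile normalization), and, when 1 library was left out, DTX3L (-0.09 to 0.06), IFI6 (-0.15 to 0.16), HERC6 (-0.21 to 0.00), STAT2 (-0.10 to 0.01), PARP14 (-0.02 to 0.21), IFITM1 (-0.01 to 0.50), IFITM2 (-0.06 to 0.23) and CMPK2 (-0.03 to 0.26).

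Over all tested genes, deviations of same-numbered libraries from their group means correlated at -0.08, 0.02 and -0.12. With 3 libraries per group, correlations over all genes cannot decide whether the numbers pair the libraries for some genes, such as the members. A fit with the replicate number as a block gave 11 members higher and 1 lower, adding OAS1, ISG15 and IFI44 and losing IRF9 (limma adjusted p = 0.051), and 1290 genes higher and 1537 lower in all. Depth limits what can be said of XAF1, SAMD9, SAMD9L, MX2 and IRF7, which were under 1 FPKM in every library.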
